A study of Caenorhabditis elegans with 2 samples.

Results

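The strong SEA-1 peaks described here are those whose summit lay in a coding exon, a 5′ UTR or a 3′ UTR of a protein-coding gene. They were chosen by their signal value, the height the authors gave each peak, at a minimum of 70 in a ranked list made from both replicates, and by a summit more than 100 bp from every tRNA, snoRNA and snRNA gene. The rule found 301 peaks among the 1988 of that signal value, in a list of 103831. Each of the 301 was a separate region, and together they lay in 287 genes. The other strong peaks were 387 in introns, 964 between genes and 336 at the small RNA genes, 4 of which lay in UTRs and were left out for that reason. Weaker peaks of the same list had 33371 summits in exons and UTRs, with signal values from 2 and a median of 23.7. Most of these ranked poorly on the authors' measure of reproducibility. They serve below as a background and not as a set of weaker binding sites.

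The values come from chromatin immunoprecipitation and sequencing of whole Caenorhabditis elegans in the early embryonic stage (0 hour), obtained by egg bleaching, in 1 group of 2 biological replicates. Both replicates were of strain OP129, in which the integrated transgene wgIs129 carries sea-1 fused to TY1, EGFP and 3xFLAG together with unc-119(+), in an unc-119(ed3) background. Chromatin was sheared by sonication and precipitated with an antibody against GFP, although an antibody tag in the labels reads sea-1. There was no second condition, and no control values were used. The depth behind the peaks is unknown.

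SEA-1 is a T-box transcription factor, one of the autosomal signal elements that act on the switch gene xol-1 against the signals from the X chromosome when an embryo sets its sex. Transcription factors mostly bind promoters and enhancers, and maps of many of them also hold peaks over exons. A peak in a 5′ UTR lies close to the promoter, while one in an internal or last exon or a 3′ UTR usually lies far from it. Peaks from whole embryos average over all their cells, so strong binding in few cells and weak binding in many cannot be told apart. No ranked peak had its summit in sea-1 itself, 8 lay in introns of unc-119 and 4 in xol-1. Of those in xol-1, 2 lay in exons or UTRs, the higher at a signal value of 24.3, and none of the 3 genes held any of the 301 peaks.

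Collagen genes gave 22 of the 301 peaks, the most of any gene family listed, and most of their summits lay in the glycine repeat of the coding sequence. Collagens are built of Gly-X-Y repeats, and glycine codons begin with GG. Each line below holds 30 bases around a summit on the coding strand of the gene, from the WBcel235 genome in RefSeq (build ce11), with in-frame glycine codons in capitals. The first 3 are the strongest collagen peaks on chromosomes II, III, IV, V and X, from which all sequences shown here come. They are let-2 at chrX:16384228-16384257 (minus strand), col-2 at chrIV:10084737-10084766 (minus strand) and col-75 at chrII:6427103-6427132 (plus strand). The gene col-89 at chrIII:4748785-4748814 (plus strand) had no ranked peak in replicate 2, and col-138 at chrIV:17183114-17183143 (minus strand) had the fewest glycine codons. The last pair stand on either side of the threshold, col-96 inside it at chrIII:11705986-11706015 (minus strand) and dpy-7 outside it at chrX:7536919-7536948 (minus strand).
let-2: GGAttcccaGGAgccccaGGActcaagGGA
col-2: ccaGGAgcatccgagcaaGGAGGAccaGGA
col-75: ttcctGGAgaagagGGActttctGGAccca
col-89: cctGGAccacctGGAccagacGGAgattct
col-138: caGGAgttcagcgtaccgtcgcatcgccag
col-96: ccaGGAcagccaGGAgtcgatgctcaatct
dpy-7: gaccaagaGGAccaaaaGGAccaccaGGTt
The let-2 and col-2 stretches held 4 glycine codons each, col-75, col-89 and dpy-7 held 3 each, col-96 held 2 and col-138 held 1. Of the 19 collagen peaks on these chromosomes, 15 had 3 or more glycine codons in the 30 bases, 3 had 2 and 1 had 1. Any 30 bases inside the repeat hold 3 or 4 such codons, at strong and weaker peaks alike. Weaker collagen peaks were not counted, so these numbers do not set strong summits apart. GC content of the 30 bases was 63.3% for let-2 and col-2 and 53.3% for col-75 and dpy-7.

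The strongest coding-exon peaks on the same chromosomes shared no such repeat. Their 30 bases at the summit are shown on the coding strand, from the same genome, with runs of 3 or more G or C in capitals. They lie at chrV:19522636-19522665 (Y43F8B.2, minus strand), chrII:5661237-5661266 (mdt-26, plus strand), chrIV:7487842-7487871 (his-60, minus strand), chrIV:7486070-7486099 (his-61, minus strand), chrIII:836000-836029 (dos-3, minus strand) and chrV:8898218-8898247 (his-18, plus strand).
Y43F8B.2: atgctcaaatCCGaGCCGattCCGtGCCtg
mdt-26: acttGGCGGtttcaatGGCtGCGtctgctc
his-60: gaggaggagtcaagagaatttctggattga
his-61: actatgctcaacgtgttggaGCCGGagctc
dos-3: GGGaGCCGaatccagatgaCCCacataatc
his-18: aactgcaacaatgtCCGGacgtggaaaGGG
Runs of G and C stood in 5 of the 6 stretches and not in that of his-60. Such runs were not counted at weaker peaks, so this number describes the 6 stretches only. The stretches of his-60 and his-18 occur at 2 places each in the genome, so reads from the copies cannot be told apart over those bases. The other 4 stretches occur at 1 place.

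Of the 301 summits, 236 (78.4%, 95% Wilson interval 73.4 to 82.7) lay in coding exons, 41 (13.6%, 10.2 to 18) in 5′ UTRs and 24 (7.97%, 5.42 to 11.6) in 3′ UTRs. Among the weaker exon and UTR peaks the shares were 86.1%, 4.88% and 9.01%. All intervals are of this kind and cover counting error only. Since the signal value chose the peaks, no difference below was tested. The 301 signal values ran from 70 to 176.4 with a median of 77.1, so most lay just above the threshold, and 26 reached 100. Strong intron peaks had a median of 78.3, intergenic peaks 86.9 and peaks at small RNA genes 137.4. All but 1 of the 301 peaks (99.7%) were 320 bp wide, the exception being Y43F8B.2 at 80 bp. Among the other strong peaks, those at small RNA genes included, the share was 92.7%.

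The 10 strongest coding-exon peaks were led by Y43F8B.2, a gene for a GSKIP domain protein. Its peak (chrV:19522583-19522662) had a signal value of 176.4, with 79.5 in replicate 1 and 93.7 in replicate 2, and its summit lay in the first of 4 coding exons (chrV:19522607-19522767). The Mediator subunit gene mdt-26 had the next conservative peak (chrII:5661092-5661411, 156.4), with 94.0 in replicate 1 and 73.7 in replicate 2. Its summit lay in the first of 8 coding exons, 71 bp downstream of a 5′ end. The gene dos-3, for a secreted protein of the Delta and OSM-11 type (chrIII:835855-836174, 129.4), had 74.2 in replicate 1 and 53.9 in replicate 2. Here the summit lay in the last of 11 coding exons, 1710 bp from the nearest coding 5′ end. The gene pals-26, of a nematode family with an ALS2CR12 signature (chrIII:4378645-4378964, 118.8), had 60.1 in replicate 1 and 71.4 in replicate 2, again with the summit in its last coding exon. The putative glutaryl-CoA dehydrogenase gene F54D5.7 (chrII:11547378-11547697, 111.7) had 46.5 in replicate 1 and 59.1 in replicate 2, at a summit in its first exon.

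A further pair of the strongest 10 stood at repeated sequence. The second strongest of all 301 peaks lay in the last exon of Y95D11A.5 (chrI:10952780-10953099, 167.1), with 102.2 in replicate 1 and 133.3 in replicate 2, the highest value of the 301 in each. It was in no conservative peak, and 89.5% of the 30-base words in the 201 bp around its summit occurred elsewhere in the genome. Y8A9A.2 (chrII:3796706-3797025, 113.4) had 71.8 in replicate 1 and 32 in replicate 2, was in no conservative peak either, and had 70.3% repeated words. The other 3 of the 10 were histone genes.

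Histone genes, which encode the proteins DNA is wound on, held 7 of the 301 peaks (2.33%, 1.13 to 4.72) and 0.0899% of the weaker exon and UTR peaks. Their median signal value of 115.6 was the highest of the families listed. The H4 gene his-60 (chrIV:7487697-7488016, 140.4) had 63.3 in replicate 1 and 80.5 in replicate 2. The neighbouring H2A gene his-61 (chrIV:7485925-7486244, 133.9) had 61.2 and 67.2 in replicates 1 and 2, and the H4 gene his-18 (chrV:8898073-8898392, 127.4) had 63.6 and 65.7. These 3 were called in the own lists of both replicates. The linker histone gene his-24, whose summit lay in the 5′ UTR (chrX:14489943-14490262, 115.6), had 65.6 in replicate 1 and 53.9 in replicate 2. The H3 genes his-2 (92.6) and his-32 (82.6) and the linker gene hil-2 (87.0) were weaker, and his-2 had the replicates furthest apart of the 7, at 63.8 in replicate 1 and 39.6 in replicate 2. All 7 lay in conservative peaks and within 236 bp of a coding 5′ end. Copies of histone genes share sequence, and a median of 25.6% of the 30-base words around these 7 summits was repeated in the genome. The part of that repetition in the signal was not tested.

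Collagen genes encode the cuticle and, for let-2 and emb-9, the type IV collagen of basement membranes. They held 22 peaks in 21 genes of the 178 in the annotation, all in coding exons, which is 7.31% of the 301 (4.88 to 10.8), against 0.83% of the weaker peaks. The strongest lay in let-2 (chrX:16384083-16384402, 109.9), with 53.2 in replicate 1 and 58.9 in replicate 2, and was the only collagen peak in the own lists of both. The next were col-2 (chrIV:10084592-10084911, 100.8), with 46.5 in replicate 1 and 40 in replicate 2, col-75 (91.6; 49.5 and 43.6) and col-50 (91.2; 53.7 and 34.4). The whole family ran from 70 to 109.9 with a median of 77.0, close to the median of 77.1 over all 301. Of the 22 peaks, 10 were conservative (45.5%, 26.9 to 65.3), against 39.8% of the other 279. Either replicate could be the higher within the family, as the plot of collagen and histone peaks shows. The gene col-138 had the values furthest apart, at 46.5 in replicate 1 and 20.5 in replicate 2.

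**Figure D1:**
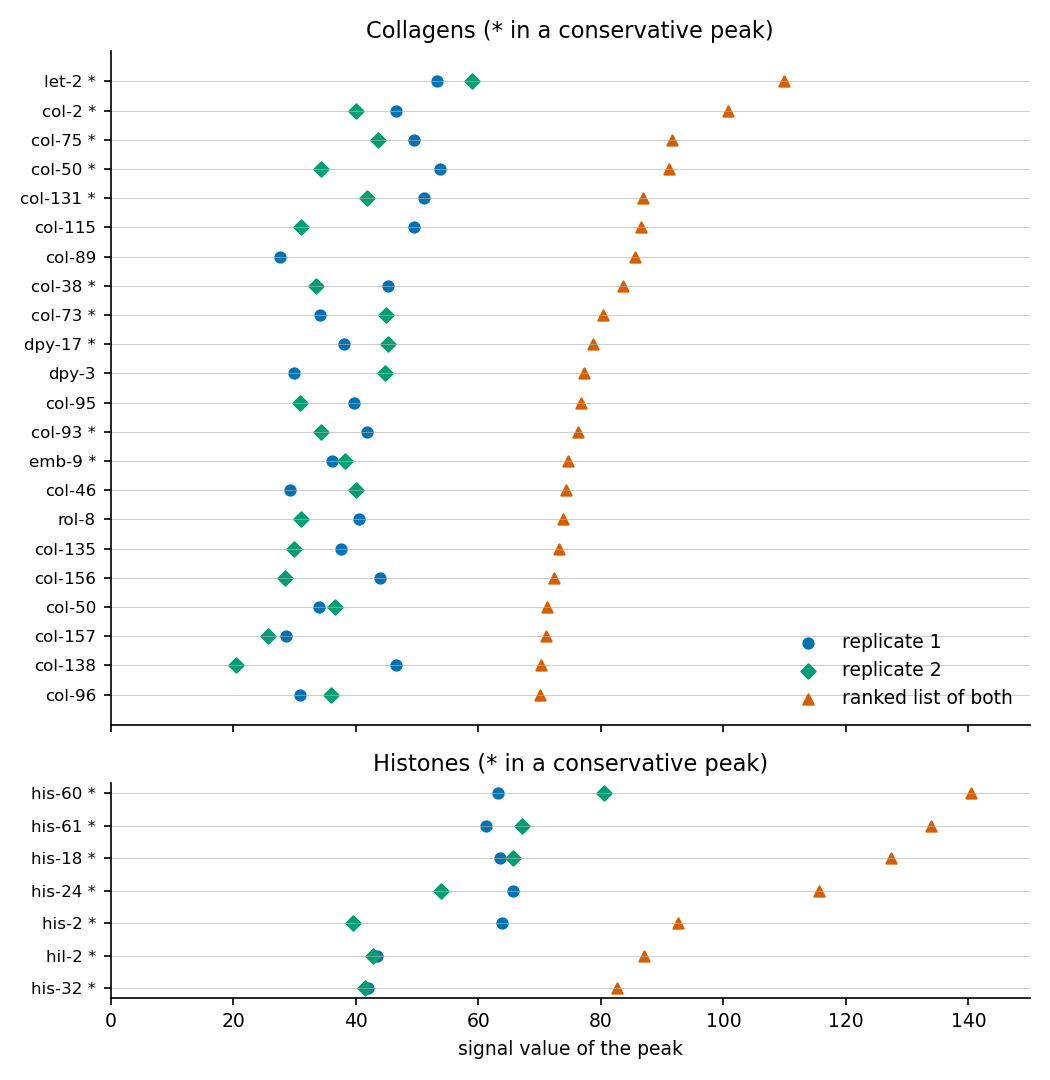
Signal value (horizontal axis, no unit stated) of each of the 22 collagen peaks (upper panel) and 7 histone peaks (lower panel), in replicate 1 (circles), replicate 2 (diamonds) and the ranked list of both (triangles); asterisks mark genes in a conservative peak. The histone values in the ranked list reach 140.4 and those of collagens 109.9, col-89 has no replicate 2 point, and all 7 histone peaks carry an asterisk.

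Within collagen genes most summits lay past the first part of the coding sequence. Of the 22, 18 (81.8%, 61.5 to 92.7) lay between 40 and 80% of the way along it, against 141 of 261 weaker collagen peaks (54%, 48.0 to 60). In steps of 20% the 22 summits numbered 1, 1, 7, 11 and 2. The window thus covers the fullest steps of these same peaks and was not planned, so the difference is partly set by its choice. The exon was 320 bp or longer for 20 of the 22 (90.9%), against 77.0% of weaker collagen peaks, and it was the last of several for 13 (59.1%). The last-exon share was not counted at weaker collagen peaks. The host transcripts had a median of 2 coding exons for the 22 and 3 for the weaker collagen peaks. Only 3 lay within 500 bp downstream of a coding 5′ end, among them dpy-17, a cuticle collagen that shapes the body, whose summit lay 31 bp from one. GC content within 100 bp of the summit had a median of 59.2% in the 22, against 54.7% in the weaker collagen peaks and 47.8% in the other 279 strong exon and UTR peaks.

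The other listed families held 4 peaks or fewer each, and each family's share of the 301 is given beside its share of the weaker exon and UTR peaks. Every family counted in this text is a list of genes matched by symbol. Genes of the same kind outside a list, such as the RNA-binding protein gene larp-5, were not counted. Of all 19985 protein-coding genes, 287 (1.44%) held a peak. Of 81 listed cytosolic ribosomal protein genes 4 had a peak. The highest of these was rpl-12 in its 5′ UTR (chrIV:13240484-13240803, 106.7), with 48.8 in replicate 1 and 58.1 in replicate 2. Then came rpl-16 (79.7), rps-3 (74.4) and rpl-7A (70.7), and 2 of the 4 were conservative. The listed genes made up 1.33% of the 301 and 0.222% of the weaker peaks. Of 64 listed splicing and RNA-binding protein genes 4 had a peak. They were the poly(A)-binding protein gene pab-1 (89.9), the hnRNP genes hrpa-1 (84.1) and hrpu-1 (82.9), and the SR protein gene rsp-6 (70.1), with 2 conservative, or 1.33% against 0.551%. Of 66 listed chaperone genes 3 had a peak. The endoplasmic reticulum Hsp70 gene hsp-3 led them with its summit in the 5′ UTR (chrX:6091962-6092281, 118.7), 55.1 in replicate 1 and 48.4 in replicate 2, before the cytosolic Hsp70 gene hsp-1 (96.5) and the Hsp40 gene dnj-13 (80.7). The listed chaperones were 0.997% of the 301 and 0.455% of the weaker peaks. Of 46 listed cytoskeleton genes 3 had a peak. These were the muscle myosin gene unc-54 (90), the centralspindlin subunit gene cyk-4 (76.4) and the anillin gene ani-1 (72), at 0.997% against 0.866%. Of 113 listed cell cycle genes 3 had a peak, cdc-42 (82.9), the polo-like kinase gene plk-2 (77.0) and cdk-1 (72), at 0.997% against 1.18%. With 3 or 4 peaks each, these shares rest on small counts.

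Of 35 listed genes of sex determination and dosage compensation, the process SEA-1 belongs to, 2 held a peak. Those 2 were 0.664% of the 301 peaks, against 0.461% of the weaker ones, a share near the background. The list leaves out the gene tra-4, of the same process, which also held a peak (chrX:2857057-2857376, 72.1, not conservative). The gene dpy-21, for a histone demethylase of the dosage compensation complex (chrV:17944192-17944511, 77.1), had 44.0 in replicate 1 and 38.2 in replicate 2 and was conservative. The gene sdc-1, of the same complex (chrX:16281236-16281555, 71.1), had 41.2 and 31.0 in replicates 1 and 2 and was not. The listed maternal polarity and germline genes gave mex-3 (81.5, conservative) and nos-3 (76.3), both for RNA-binding proteins of the early embryo, at 0.664% against 0.728%. The aminoacyl-tRNA synthetase genes gave aars-1 (79.3) and yars-2 (72.3), at 0.664% against 0.312%, and the C-type lectins clec-266 (102.2) and clec-80 (80.6), at 0.664% against 0.959%. The list of 408 homeobox, T-box, GATA, bHLH and nuclear receptor genes, which leaves out other transcription factor families such as that of xbp-1, gave egl-27 alone (81.9), a GATA zinc finger gene related to MTA subunits of the NuRD complex, or 0.332% of the 301 against 1.70% of the weaker peaks. The mitochondrial ribosomal proteins gave mrpl-50 alone (75.3), at 0.332% against 0.282%. No peak lay in a listed translation factor, respiratory chain, proteasome or vitellogenin gene. These held 0.345%, 0.255%, 0.198% and 0.0929% of the weaker peaks, at which a count of 0 in 301 is near the background. None lay in any of 1276 listed chemoreceptor or 315 listed F-box genes either, which held 2.57% and 0.98% of the weaker peaks. In all, 56 of the 301 peaks (18.6%) belonged to a listed family, against 13.1% of the weaker peaks.

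In 5′ UTRs, the strongest peak lay in W07E6.5, a gene with a GPCR family 2 domain (chrII:476045-476364, 122.4), with 59.7 in replicate 1 and 57.2 in replicate 2. It was followed by hsp-3, his-24, F49C12.9, with a ubiquitin-associated domain (chrIV:9316048-9316367, 115.2; 66.8 and 57.4 in replicates 1 and 2), and rpl-12. Except for W07E6.5, these summits lay 2 to 9 bp downstream of a coding 5′ end, and the median over the 41 peaks was 35 bp. The peaks in 3′ UTRs were led by Y43F8B.3, for a Kunitz inhibitor domain protein (chrV:19519700-19520019, 138.1), with 74.7 in replicate 1 and 71.3 in replicate 2. It lies beside Y43F8B.2, which holds the strongest of the 301 peaks. Then came the lipid transfer protein gene bltp-2 (chrI:15041541-15041860, 106.8; 73.5 and 33.8), clec-266 (chrX:6617635-6617954, 102.2; 52 and 46.4), the ubiquitin ligase gene Y71H2AM.3 (94.4; 39.2 and 59.0) and vab-23 (90.4; 39 and 47.9). All 10 of these UTR peaks were conservative.

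Of the 287 genes, 274 held 1 of the peaks, 12 held 2 and 1 held 3. The last was larp-5, for a La-related RNA-binding protein, with a peak in the 5′ UTR (73.7), another in a coding exon (73.1) and the last in the 3′ UTR (70.9), spread over 6502 bp and none conservative. Among those with 2, named after their values were seen, were several chromatin regulators. Both peaks of nurf-1, for the large subunit of the NURF remodeller, were conservative (86.8 and 76.4, summits 864 bp apart). The SWI/SNF subunit genes swsn-1 and let-526 had 1 conservative peak each of 2, while neither peak of let-418 (Mi-2) or mes-2 (an H3K27 methyltransferase) was. Both peaks of xbp-1, a transcription factor of the unfolded protein response, were conservative (86.2 and 78.8), 1 in each UTR. These genes belong to no list counted here, and no statement on the class as a whole is made from them.

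Along genes, the summits stood nearer to 5′ ends than those of weaker exon and UTR peaks. Of the 301, 119 (39.5%, 34.2 to 45.2) lay within 500 bp downstream of a coding transcript's 5′ end, against 25.7% (25.3 to 26.2) of the 33371 weaker peaks. Beyond 1000 bp from every coding 5′ end lay 128 (42.5%), against 51.3%. Read the other way, 1.70% of ranked exon and UTR peaks within 100 bp of a coding 5′ end (54 of 3171) had a signal value of 70 or more. That share was 1.49% at 101 to 200 bp, 1.01% at 201 to 500 bp, 0.623% at 501 to 1000 bp and 0.743% beyond (128 of 17237). A share of 36.5% lay in a promoter window from 1000 bp upstream to 200 bp downstream of a coding 5′ end, against 26.3%.

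Over the 236 coding-exon peaks, 44 summits (18.6%, 14.2 to 24.1) lay in the first coding exon, 10 of them in genes with only 1 coding exon. Among weaker coding-exon peaks 11.9% lay in the first. The last of several exons held 53 (22.5%, 17.6 to 28.2), against 15%, and internal exons held 139 (58.9%, 52.5 to 65.0), against 73.1%. The exons were longer, with a median of 370.5 bp against 270 bp, and 136 (57.6%) were at least as long as a 320 bp peak, against 42.1%. Exon length and exon place go together in genes, and the part of either in the signal was not tested. In steps of 20% of the coding sequence the 236 summits numbered 52, 34, 51, 52 and 47 from start to end.

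**Figure D2:**
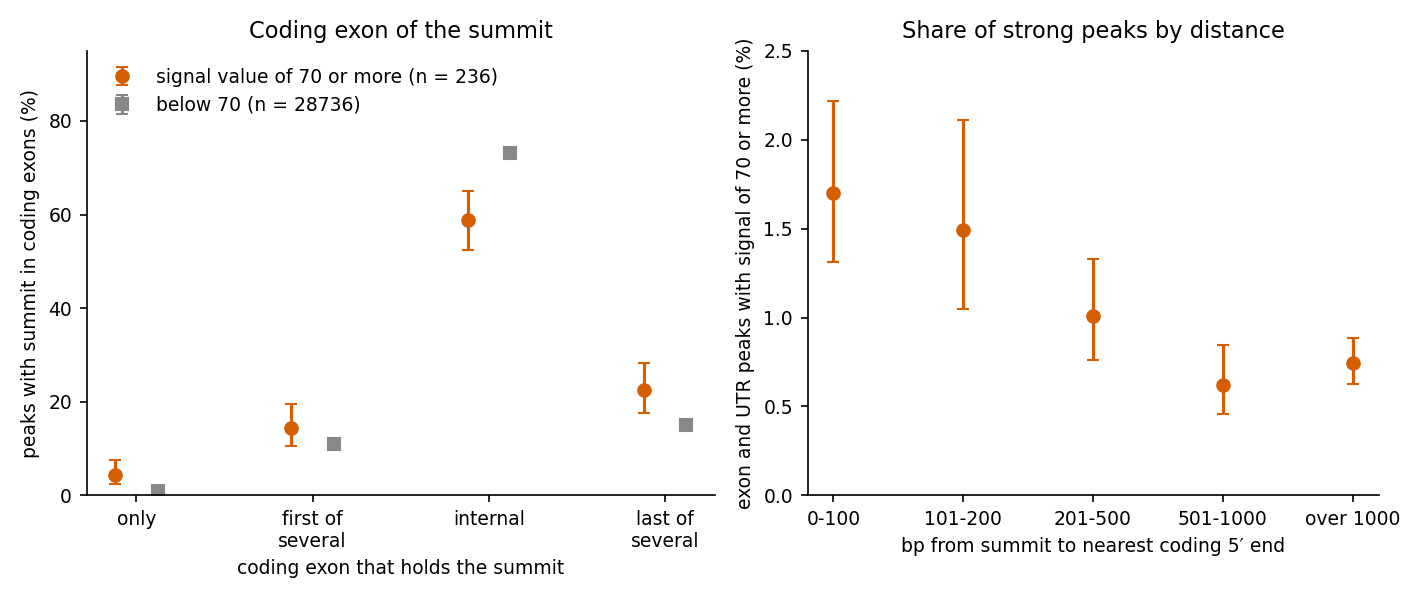
Left, percent of coding-exon peaks (vertical axis) whose summit lies in the only, first, an internal or the last coding exon, for the 236 strong peaks (circles) and 28736 weaker peaks (squares). Right, percent of ranked exon and UTR peaks with a signal value of 70 or more by distance in bp to the nearest coding 5′ end; bars are 95% Wilson intervals, and the share is 1.70% within 100 bp and 0.743% beyond 1000 bp.

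Bases around the summits were richer in G and C than at weaker peaks. GC content within 100 bp of the summit had a median of 48.3% over the 301 peaks (interquartile range 43.3 to 53.2), against 40.8% over the weaker exon and UTR peaks. This held by class, with medians of 49.3% against 41.8% in coding exons, 46.3% against 39.3% in 5′ UTRs and 41.3% against 34.3% in 3′ UTRs. Strong intron peaks stood at 46.3% and strong intergenic peaks at 45.3%. A GC content of 50% or more was found at 119 of the 301 (39.5%, 34.2 to 45.2), 27.6% of strong intron peaks, 27.4% of strong intergenic peaks and 9.18% of weaker exon and UTR peaks.

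The share of ranked exon and UTR peaks that reached 70 went up with every band of GC content. It was 0.264% below 40% GC (39 of 14765), 0.619% at 40 to 45%, 1.40% at 45 to 50%, 2.63% at 50 to 55%, 5.10% at 55 to 60% and 11.5% at 60% or more (25 of 218). Collagen genes did not carry this alone. Without them the share was 0.264% in the lowest band and 10.1% (14 of 138, 6.14 to 16.3) in the highest. Collagen peaks at 60% GC or more reached 70 in 13.8% of cases (11 of 80, 7.85 to 23.0), within the interval of the other genes. In the 3 bands below, the collagen share was above that interval, at 4.76% (2 of 42, 1.32 to 15.8) against 1.37% (1.1 to 1.7) from 45 to 50% GC, 5.77% (3 of 52, 1.98 to 15.6) against 2.56% (1.99 to 3.3) from 50 to 55%, and 8% (6 of 75, 3.72 to 16.4) against 4.72% (3.26 to 6.78) from 55 to 60%. The collagen intervals, from 2 to 6 strong peaks each, overlapped those of the other genes. No collagen peak reached 70 below 40% GC (0 of 20) or from 40 to 45% (0 of 30). The other genes had 0.264% and 0.621% there. The part of GC content in the signal value was not tested, and no control values were used.

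**Figure D3:**
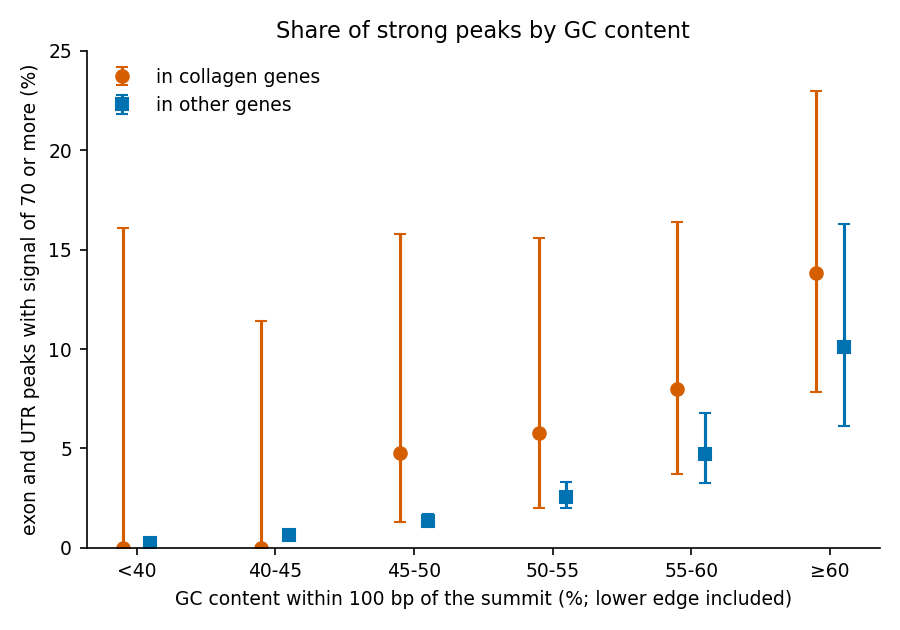
Percent of ranked exon and UTR peaks with a signal value of 70 or more (vertical axis) by GC content in the 201 bp around the summit (horizontal axis, percent), for collagen genes (circles) and all other genes (squares), with 95% Wilson intervals. Both are highest at the right, at 13.8% in collagen genes and 10.1% in other genes at 60% GC or more.

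The T-box core GGTGTGA, to which T-box proteins are known to bind, was looked for on both strands within 100 bp of each summit. It stood at 10 of the 301 peaks (3.32%, 1.81 to 6.01), at 533 of the 33371 weaker exon and UTR peaks (1.60%, 1.47 to 1.74) and at 23 of 1351 strong intron and intergenic peaks (1.70%, 1.14 to 2.54). No test was made of these shares. The 4 peaks of highest signal value that hold it are shown with 30 bases on the strand that reads GGTGTGA, with the core in capitals. In ce11 they are at chrII:5661322-5661351 (mdt-26, minus strand), chrV:8898136-8898165 (his-18, minus strand), chrII:6491807-6491836 (T28D9.11, minus strand) and chrIII:5944024-5944053 (F25B5.5, minus strand).
mdt-26: tttctattgacgGGTGTGAttcatgggacg
his-18: ataccactatgcGGTGTGAaggaggagaca
T28D9.11: catgcttcgtgcGGTGTGAattaatctaaa
F25B5.5: aggatcgatggtGGTGTGAaagcagtgttc
Their signal values were 156.4 for mdt-26, 127.4 for his-18, 87.0 for T28D9.11 and 77.6 for F25B5.5, and all but T28D9.11 were conservative. The 6 other peaks with the core had values from 70.2 to 73.1 and none was conservative. A match describes the letters in the window and is not a site of binding.

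Support in the authors' stricter lists was read from overlaps that covered 50% or more of the shorter peak. The conservative list holds peaks past an irreproducible discovery rate (IDR) of 0.01, the estimated share of irreproducible peaks among those ranked as high or higher, and 121 of the 301 peaks were in it (40.2%, 34.8 to 45.8), against 57.4% of all 1988 strong peaks. The second thresholded list held 119 (39.5%), against 57.3%. The own list of replicate 1 held 23 (7.64%, 5.15 to 11.2), against 24.3%, and that of replicate 2 held 25 (8.31%, 5.69 to 12), against 25.5%. Both own lists held 9 (2.99%, 1.58 to 5.58), against 16.5%, and at least 1 held 39 (13.0%), against 33.2%. The signal value that chose the peaks comes from the same reads, so these shares are descriptions. By class the conservative share was 58.3% in 3′ UTRs (14 of 24), 48.8% in 5′ UTRs (20 of 41) and 36.9% in coding exons (87 of 236). For other strong peaks it was 51.2% in introns, 54.5% between genes and 88.4% at small RNA genes. The share in both own lists was 6.98% in introns, 11.8% between genes and 53.0% at small RNA genes. At least 1 own list held 22.5%, 30.7% and 71.1% in the same order.

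The conservative share of exon and UTR peaks was larger in each higher band of signal value. From 70 to 80 the conservative share was 21.4% of 187 exon and UTR peaks (16.1 to 27.8), against 23.8% of intron and 22.7% of intergenic peaks. From 80 to 100 it was 65.9% of 88 (55.5 to 75), against 80.7% of intron and 73.8% of intergenic peaks. At 100 or more it was 88.5% of 26 (71.0 to 96.0), against 93.2% of intron and 72% of intergenic peaks. In each band the interval for exon and UTR peaks overlapped those for intron and for intergenic peaks. All 9 peaks in both own lists had a value of 100 or more, where they made up 34.6% of 26, against 45.8% of intron and 34.0% of intergenic peaks. They were those of Y43F8B.2, mdt-26, his-60, Y43F8B.3, his-61, his-18, W07E6.5, F49C12.9 and let-2.

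**Figure D4:**
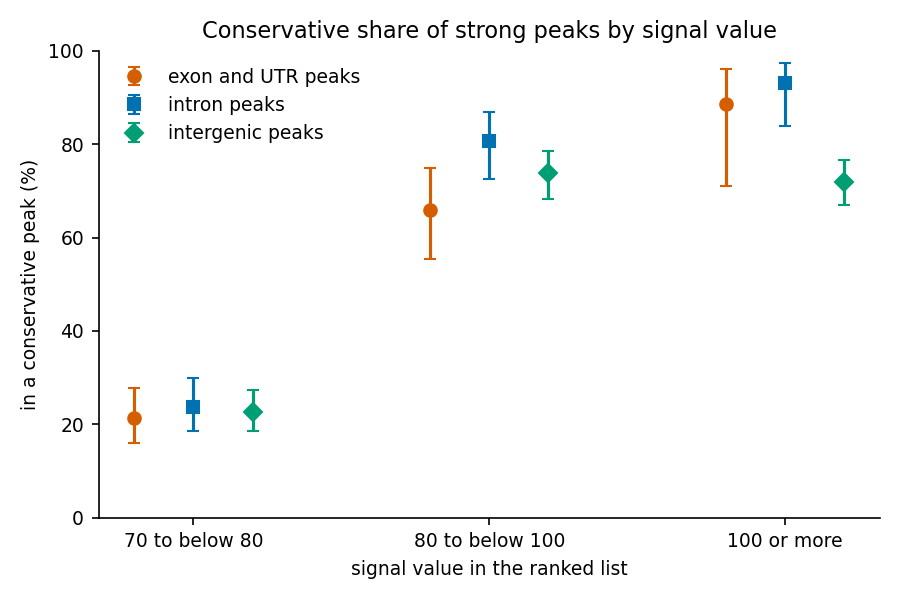
Percent of strong peaks in a conservative peak (vertical axis) by signal value in the ranked list (horizontal axis), for exon and UTR peaks (circles), intron peaks (squares) and intergenic peaks (diamonds), with 95% Wilson intervals. The exon and UTR share is 21.4% in the lowest band and 88.5% in the highest.

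In the replicates' own ranked lists, 296 of the 301 had a peak in replicate 1 and 298 in replicate 2. The median signal value was 39.6 in replicate 1 (16.2 to 102.2) and 37.3 in replicate 2 (6.59 to 133.3), against 16.6 and 16.4 over the whole ranked lists, at median ranks of 1999 of 71678 and 2243.5 of 68844. Over the 293 with both, the log2 ratio of replicate 1 over replicate 2 had a median of 0.12 and an SD of 0.55, and 167 (57.0%) were higher in replicate 1. In 21 (7.17%) the replicates were more than 2-fold apart, against 6.53% of the other strong peaks. Log10 values of the replicates had a Pearson's r of 0.02 and a Spearman's rho of -0.16 over these 293 peaks of 2 libraries. The sum of the replicates' values was close to the signal value that chose the peaks, at a median ratio of 0.97. The peaks were thus chosen on a value close to that sum, and the correlation over them says nothing of peaks at large.

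**Figure D5:**
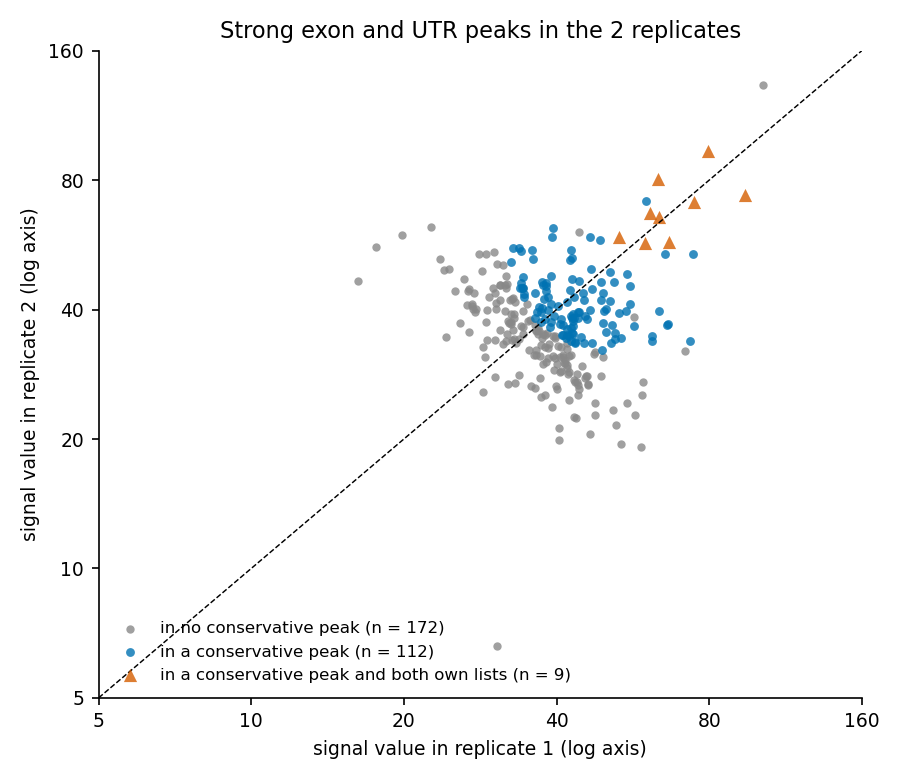
Signal value of the 293 peaks found in the ranked lists of both replicates, with replicate 1 on the horizontal and replicate 2 on the vertical axis (both log axes); grey, in no conservative peak; blue, in a conservative peak; orange triangles, also in both own lists; the dashed line marks equal values. The 9 triangles lie at 53.2 or more in replicate 1 and 57.2 or more in replicate 2, and the grey point at the upper right is Y95D11A.5.

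The strongest peaks without a counterpart in 1 replicate were col-89 (chrIII:4748640-4748959, 85.5), with 27.6 in replicate 1 and none in replicate 2, the Mediator gene mdt-29 (chrIII:13778258-13778577, 83.7), with 44.8 in replicate 2 alone, and K04F10.7 (chrI:6366602-6366921, 82.9), with 49.9 in replicate 2 alone. None was conservative. Of the 125 peaks past the IDR of 0.01 in the ranked comparison of the replicates, 4 were in no conservative peak. These were Y95D11A.5, Y8A9A.2, ZC247.1 (95.1) and the titin gene ttn-1 (77.1), the last pair named after their values were seen. In ZC247.1 and ttn-1 100% of the 30-base words around the summit were repeated in the genome, while 87.4% of the 301 peaks had no repeated word, against 54% of the other strong peaks. Those others include the peaks at small RNA genes. The upper quartile of repeated words was 0% over the 301, 16.3% in introns, 37.4% between genes and 34.3% at small RNA genes. The third strongest peak in no conservative peak, C56C10.7 (chrII:6587294-6587613, 101.9), had 44.2 in replicate 1 and 60.6 in replicate 2 and no repeated word. It was in the second thresholded list. Its −log10 IDR was 0.2 in the comparison of the replicates and 2.9 in the list used to choose the peaks, where 2 stands for an IDR of 0.01.

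At the threshold, the 3 weakest peaks inside were Y119D3B.21 (70.04, with 37.1 in replicate 1 and 31.2 in replicate 2), F54F2.7 (70.03; 50 and 40.1, conservative) and col-96 (70; 30.9 and 35.9). The 3 peaks just outside were dpy-7 (69.99; 40.6 and 23.2), vha-8 (69.98; 34.3 and 37.2) and sop-3 (69.96; 35.8 and 30.1), none of them conservative. A collagen gene stood on each side, and the values do not separate at this point. By chromosome the 301 numbered 52 on I, 60 on II, 54 on III, 50 on IV, 48 on V and 37 on X. The X share was 12.3% (9.05 to 16.5), against 21.5% of the other strong peaks, those at small RNA genes included, and 14.7% of the weaker exon and UTR peaks.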

How the data were processed

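Chromatin immunoprecipitation of GFP-tagged SEA-1 was analysed from 2 biological replicates, 1 group by the stage in the labels. The build is ce11, per the labels. The sequencing depth, the aligner and the peak caller were not given in the sources used here. No control values were used here, and those sources do not say whether the authors' signal values rest on a control. The authors deposited a signal value per peak, with no normalization stated, which served to rank and describe peaks within a list. The deposited score of the ranked lists is the −log10 IDR, read from the layout and the values. All 1249 conservative peaks stood at 2 or more (IDR 0.01) in the ranked series list that compares the replicates, and the deposited offset gave the summit. Series lists combine the replicates. The other ranked series list, used to choose the peaks, does not compare the replicates with each other, so a replicate's value is that of the strongest peak in its own ranked list that covers 50% or more of the shorter peak. Those lists have no stated common scale. In the ranked list used to choose the peaks, the median −log10 IDR was 1.9 over the 301 peaks and 0.229 over the weaker exon and UTR peaks.

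Summits were placed in the Ensembl release 115 annotation of WBcel235 (coding exon before 5′ UTR before 3′ UTR, any coding transcript), and exon place followed the transcript of longest coding sequence that holds the summit. GC content and repeated 30-base words were taken from 201 bp around it. Gene families were matched by symbol, so genes of the same kind under other symbols were not counted. Python 3.11.15, pandas 2.3.3, numpy 2.4.6 and scipy 1.17.1 were used, and placing and overlap were checked on simulated positions. The peaks and lists were chosen with earlier results of these data known, and 2 lists were amended after host genes had been seen (rpl-7A added, emb-9 taken out of cell cycle genes).

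Genes named were the 10 coding-exon, 5 5′ UTR and 5 3′ UTR peaks of highest signal value, up to 4 per list, 3 on each side of the threshold, the 3 strongest in no conservative peak, the 3 strongest absent from a replicate, and genes with 3 or more peaks. Others, such as col-138, dpy-17, emb-9 and the genes at the T-box core, were chosen after their values were seen. Alternatives changed the threshold, the distance to small RNA genes, the ranked list, the transcripts, the overlap and the replicates; those for collagen and GC shares were added after seeing the data.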

Additional observations from a re-analysis of the deposited data

How the results depend on the processing

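Of 60 values under alternatives, 41 moved by less than their interval or, for the number of peaks, by under 1.5 times, and 19 moved further. Comparisons with weaker or other strong peaks were not recomputed. The threshold moved most. At a signal value of 100 or more, 26 peaks remained, with 69.2% in coding exons, 88.5% conservative, 34.6% in both own lists, 50% of coding-exon summits in the first exon, 15.4% at histone genes, 53.8% within 500 bp downstream of a 5′ end and 50% with a GC content of 50% or more. At 50 or more there were 2379 peaks, with 84.3%, 5.67% and 0.378% for the first 3 of these shares, 0.546% at histone genes, 3.32% at collagen genes, 32.4% within 500 bp downstream of a 5′ end and 24.7% at that GC content. With the transcript of longest coding sequence alone, 283 peaks met the rule, and 32.9% of them lay within 500 bp downstream of a 5′ end. Under this setting fewer summits counted as exon or UTR and fewer 5′ ends were counted. The part of each in the lower share was not tested. With 1 own list in place of both, the share of peaks in it ran from 7.64% to 8.31%, since only 1 list had to hold the peak. For the threshold the cause was not tested. No paired analysis was possible because there is 1 group and no test. Limits are the unknown depth, that no control values were used, 2 replicates, GC content that moves with the signal, and repeated sequence at some peaks.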

Other observations

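Short words were looked for on both strands in the 201 bp around each summit after the GC content had been seen, and no test was made. The 2 words below were taken from those more frequent at the 301 peaks than at weaker ones, so that difference is part of their choice. AGGAGG stood at 63 of the 301 peaks (20.9%), 7.84% of the weaker exon and UTR peaks and 11.0% of strong intron and intergenic peaks. CCAGGA, which can spell a proline and a glycine codon, stood at 54 (17.9%), 8.98% and 4.07% in the same order. The part of GC content in these counts was not tested.

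Annotated noncoding genes of other kinds or pseudogenes lay within 100 bp of 9 of the 301 summits (2.99%, interval 1.58 to 5.58), of which 7 were of the ncRNA class, 1 antisense and 1 a piRNA.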
